A study of Mus musculus with 12 samples.

Results

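Mouse mammary fat pads rich in brown fat RNA were set against pads poor in it, with the sides chosen by the level of Ucp1. The level is in CPM, reads of a gene scaled to a common library size, with the mitochondrial ribosomal RNA genes mt-Rnr1 and mt-Rnr2 left out of that size. The 6 libraries highest in Ucp1, of 12 in all, form the Ucp1-high side, and the 6 lowest form the Ucp1-low side. The study compared right thoracic mammary fat pads, taken whole, of C57BL/6 mice at postnatal day 84, 4 weeks after supplementation with folic acid at 5 mg/kg (6 libraries) or at 1 mg/kg (6 libraries). Both groups received folic acid, and no unsupplemented group was analysed here. Whether each library is its own animal is not stated in the labels, and a p here covers the spread between libraries, which may be technical. The sides were made from the same RNA that is compared here, so they are no treatment groups, and Ucp1 itself is given as a description.

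Brown adipocytes burn fatty acids to make heat. UCP1, the uncoupling protein of the inner mitochondrial membrane, lets protons back into the matrix without ATP being made, and noradrenaline from sympathetic nerves starts the process through beta-adrenergic receptors and cyclic AMP. Such cells are dense in mitochondria and hold proteins for fatty acid uptake, activation and oxidation that white adipocytes have little of. In mice the thoracic mammary pads lie near the brown fat of the shoulder and axilla and near muscle of the chest wall and forelimb. In whole-pad RNA, fewer cells of a type and less RNA per cell cannot be told apart.

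Ucp1 stood at 1483, 1169, 1089, 662, 317 and 236 CPM in the Ucp1-high libraries, against 197, 166, 90.3, 33.4, 19.4 and 1.90 CPM in the Ucp1-low libraries. The highest library lay 782-fold above the lowest. The library just inside the Ucp1-high side had 236 CPM and the one just outside it 197 CPM, a ratio of 1.20, so the split cuts through a continuous series. Median Ucp1 was 875 CPM on the Ucp1-high side and 61.8 CPM on the Ucp1-low side.

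The folic acid groups fell unevenly over the sides. Of the Ucp1-high libraries, 5 came from 5 mg/kg pads and 1, replicate 3, from a 1 mg/kg pad. Of the Ucp1-low libraries, 1, replicate 6, came from a 5 mg/kg pad and 5 from 1 mg/kg pads (two-sided Fisher exact test, p = 0.0801). Dose and side therefore nearly coincide, and their shares in what follows cannot be told apart beyond the fits given below.

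Some libraries stood apart in other ways. The B cell gene Ms4a1, which marks lymph node tissue, was at 1.01 to 2.03 CPM in 5 libraries and at 28.6 to 334 CPM in the other 7, with both kinds on both sides. The skin genes Dmkn and Krt10 were high in 2 Ucp1-high libraries, replicates 4 and 2 at 5 mg/kg. Gene-assigned reads numbered 61.5 ± 7.52 M on the Ucp1-high side and 58.9 ± 8.28 M on the Ucp1-low side (mean ± SD, n = 6 each, M for mega, exact permutation p = 0.580). The share of reads aligned outside genes was 9.75 ± 3.25% on the Ucp1-high side and 17.2 ± 5.97% on the Ucp1-low side (exact permutation p = 0.0238, 0.0714 after Benjamini-Hochberg adjustment over 6 library measures). Mitochondrial ribosomal RNA took 51.1 ± 6.06% of gene-assigned reads on the Ucp1-high side and 44.3 ± 3.74% on the Ucp1-low side (p = 0.0433, adjusted 0.0866, exact permutation).

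The stretch around the transcription start is shown for Ucp1 and for 3 of the genes that followed it in every fit described below, from 250 bases before to 50 bases after the start. The start is RefSeq's, which for Slc27a2 and Otop1 lies downstream of the outermost start in the GENCODE gene spans given further on. Sequences are from RefSeq on GRCm38.p6, written 5′ to 3′ on the gene's own strand. Ucp1 lies at chr8:83290098-83290397 on the plus strand, Slc27a2 at chr2:126552774-126553073 on the plus strand, Otop1 at chr5:38277154-38277453 on the plus strand and Cpn2 at chr16:30267483-30267782 on the minus strand. Capitals mark AGGTCA, the core element to which nuclear receptors such as the PPARs bind, or TGACCT, the same element on the other strand.
Ucp1: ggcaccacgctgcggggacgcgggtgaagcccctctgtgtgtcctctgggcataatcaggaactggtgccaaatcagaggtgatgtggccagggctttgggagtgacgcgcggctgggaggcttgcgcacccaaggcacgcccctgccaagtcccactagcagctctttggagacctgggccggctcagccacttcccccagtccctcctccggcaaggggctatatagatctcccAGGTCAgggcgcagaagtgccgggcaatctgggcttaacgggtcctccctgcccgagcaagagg
Slc27a2: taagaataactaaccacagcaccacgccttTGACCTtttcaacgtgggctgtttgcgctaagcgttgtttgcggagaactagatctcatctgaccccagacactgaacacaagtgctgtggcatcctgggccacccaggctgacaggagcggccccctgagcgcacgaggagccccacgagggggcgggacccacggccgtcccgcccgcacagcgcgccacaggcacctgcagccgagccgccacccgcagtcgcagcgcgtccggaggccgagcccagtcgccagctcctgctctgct
Otop1: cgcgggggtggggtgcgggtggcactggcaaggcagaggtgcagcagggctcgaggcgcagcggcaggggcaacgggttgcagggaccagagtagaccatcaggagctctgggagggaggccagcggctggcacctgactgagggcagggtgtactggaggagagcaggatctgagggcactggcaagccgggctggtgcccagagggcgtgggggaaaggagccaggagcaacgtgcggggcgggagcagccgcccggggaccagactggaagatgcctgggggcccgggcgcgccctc
Cpn2: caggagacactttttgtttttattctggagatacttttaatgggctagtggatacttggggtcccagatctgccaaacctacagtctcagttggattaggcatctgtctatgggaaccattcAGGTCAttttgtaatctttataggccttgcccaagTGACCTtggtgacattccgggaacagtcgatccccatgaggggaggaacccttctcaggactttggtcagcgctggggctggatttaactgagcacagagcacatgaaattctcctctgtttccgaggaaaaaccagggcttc
The match in Ucp1 begins 14 bases before the start. Slc27a2 holds 1 match on the other strand, 220 bases before its start, Cpn2 holds 2, 1 on each strand, and Otop1 holds none in this window. Of 32851 mouse promoters of this length, 5340 (16.3%) hold the element on either strand, so a match is common and describes the letters only.

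Cidea, Elovl3 and Zic1, the other genes that mark brown fat here, all had higher mean levels on the Ucp1-high side. Cidea, which coats and enlarges lipid droplets in brown adipocytes, ran from 99.2 to 426 CPM with a median of 294 CPM in the Ucp1-high libraries, against 4.87 to 91.0 CPM with a median of 47.4 CPM in the Ucp1-low libraries. No library of one side overlapped the other, and the log2 fold change, Ucp1-high over Ucp1-low, was 2.64 ± 0.66 (SE, n = 6 each, edgeR quasi-likelihood test, adjusted p = 0.369). Elovl3, an enzyme that lengthens fatty acids in brown fat, ran from 5.35 to 34.9 CPM (median 18.6) on the Ucp1-high side and from 0.425 to 6.07 CPM (median 2.32) on the Ucp1-low side. One Ucp1-low library, replicate 4 at 1 mg/kg, lay above the lowest Ucp1-high library, and the log2 fold change was 3.08 ± 0.70. Zic1, a transcription factor of the lineage that gives classical brown fat, was scarce, at 0.827 to 3.28 CPM (median 1.62) in Ucp1-high libraries against 0.0827 to 1.12 CPM (median 0.531) in Ucp1-low libraries. Its sides overlapped and its log2 fold change was 1.88 ± 0.60. All 3 markers had their higher mean on the side that Ucp1 chose, and Cidea alone parted it fully.

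**Figure D1:**
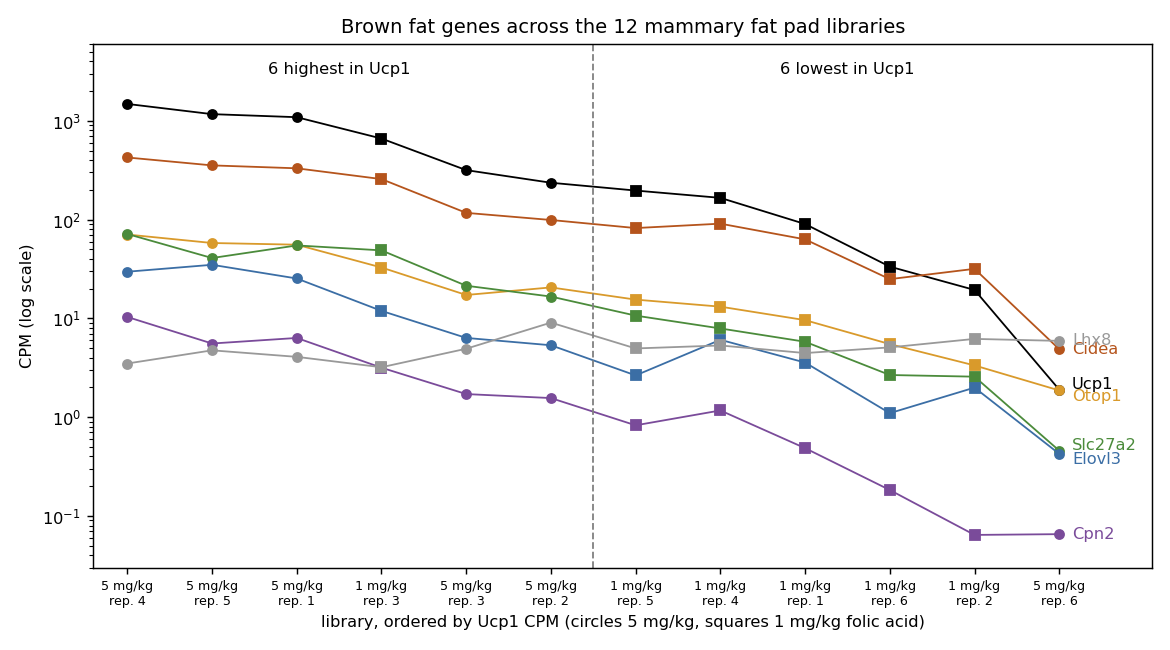
CPM on a log axis of Ucp1 and 6 other genes in each library, ordered by Ucp1 from highest to lowest; the dashed line parts the Ucp1-high from the Ucp1-low libraries, circles are 5 mg/kg and squares 1 mg/kg pads, and lines only join points of one gene. Cidea, Otop1, Slc27a2, Elovl3 and Cpn2 step down with Ucp1, and Lhx8 stays between 3.20 and 9.07 CPM.

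Across all genes, the split itself gave no call. In edgeR's quasi-likelihood test, none (0) of 18615 genes had an adjusted p under 0.05, the smallest being 0.369. An unadjusted p under 0.05 was found for 2278 genes, 1207 higher (6.48%) and 1071 lower (5.75%) on the Ucp1-high side. With DESeq2 70 genes passed, 65 higher (0.308% of 21080 genes with an adjusted p) and 5 lower on the Ucp1-high side (0.0237%), the 5 being unnamed gene models. Of the 65, 20 belonged to the brown fat lists described next, and the skin genes Dmkn, Krt10 and Krtdap were among the rest. With Ms4a1 as a term in edgeR 24 genes passed, 23 higher (0.124%) and 1 lower (0.00537%), Baz1a, a chromatin remodelling subunit that was chosen for naming after its value was seen. Of the 23, 6 were brown fat list genes, among them Kcnk3, Adcy3, Kng2 and Plin5. With limma-voom 0 passed, and 1885 had an unadjusted p under 0.05. Fold changes below are therefore values that did not pass by edgeR unless a test is named.

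Brown fat genes were read as 4 lists of 60 entries, of which 59 were counted highly enough to test and 1, the hormone gene Fgf21, was not. Of the 59, 57 had a log2 fold change above 0, where 44.3% of all tested genes did. An unadjusted p under 0.05 with a higher level was found for 45 of the 59, where 6.48% of all genes had one. That number was 12 of the 59 with the share of reads outside genes as a term, where 206 of all genes passed in either direction, and 6 of the 59 with dose and Ckm as terms together (460 of all genes). Every Ucp1-high library lay above every Ucp1-low library for 11 of the 59, where 0.145% of all genes showed this (0.134% in TMM-scaled CPM). The reverse, every Ucp1-high library below every Ucp1-low one, held for 0.145% of all genes (0.167% in TMM-scaled CPM) and for 0 of the 59. The median log2 fold change of all tested genes was -0.04. As single genes, 11 of the 59 had exactly the same 6 libraries on top as Ucp1, 25 shared 5 of them and 16 shared 4. Another 4 genes shared 3, 2 shared 2 and 1 shared 1. Partial sharing was not counted over all genes, so these counts describe the 59 only.

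Fatty acid handling was the brown fat list with the most members that separated the sides. All 20 of its tested genes had positive log2 fold changes, with a median of 1.39, and for 7 of them the sides did not overlap. Slc27a2, which takes up and activates very long chain fatty acids (GRCm38 chromosome 2, 126552407 to 126588243, plus strand), ran from 16.6 to 71.6 CPM (median 44.8) in Ucp1-high libraries against 0.458 to 10.7 CPM (median 4.24) in Ucp1-low libraries. The lowest Ucp1-high library thus lay above the highest Ucp1-low library, and the log2 fold change was 3.29 ± 0.66. Acot11, a thioesterase that frees fatty acids from coenzyme A, ran from 31.7 to 264 CPM (median 125) on the Ucp1-high side and from 5.99 to 27.0 CPM (median 15.2) on the Ucp1-low side. Within the Ucp1-high side Acot11 split again, with 185 to 264 CPM in the 3 libraries highest in Ucp1 and 31.7 to 65.4 CPM in the other 3. Its log2 fold change was 3.35 ± 0.64.

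Gk, the glycerol kinase that lets brown adipocytes reuse glycerol, had the smallest p of all genes tested. It ran from 26.5 to 99.8 CPM (median 51.1) on the Ucp1-high side and from 8.52 to 24.2 CPM (median 13.9) on the Ucp1-low side, without overlap, and its log2 fold change was 2.09 ± 0.36 (unadjusted p = 8.16e-05 by edgeR). Pank1, which makes coenzyme A from pantothenate, ran from 37.9 to 132 CPM (median 85.1) on the Ucp1-high side and from 13.4 to 30.8 CPM (median 21.9) on the Ucp1-low side, with a log2 fold change of 2.14 ± 0.39. The sides of Pank1 did not overlap either. Plin5, which ties lipid droplets to mitochondria, was at 16.1 to 47.6 CPM (median 24.1) in Ucp1-high libraries against 5.46 to 12.6 CPM (median 7.90) in Ucp1-low libraries, a log2 fold change of 1.85 ± 0.37. Genes of mitochondrial fatty acid oxidation had smaller fold changes, with Acaa2 at 1.57 ± 0.36, Acadvl at 1.41 ± 0.35, Etfdh at 1.22 ± 0.31, Hadha at 1.08 ± 0.29 and Cpt2 at 1.05 ± 0.29. Slc27a1, another fatty acid transporter that is also used in muscle and white fat, was at 0.30 ± 0.26.

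Receptors and signals of heat production were higher on average in all 13 tested genes, with a median of 1.28, and in 4 of them the sides did not overlap. Otop1, which encodes a proton channel (GRCm38 chromosome 5, 38275972 to 38304217, plus strand), ran from 17.3 to 70.7 CPM (median 44.3) on the Ucp1-high side and from 1.86 to 15.5 CPM (median 7.55) on the Ucp1-low side. It stepped down almost in the order of Ucp1 and had a log2 fold change of 2.61 ± 0.58. Kng2, a kininogen, had the largest fold change of the list, 3.99 ± 0.72. It was at 6.38 to 9.47 CPM in the 3 libraries highest in Ucp1, at 0.902 to 1.69 CPM in the other Ucp1-high libraries and at 0.131 to 0.585 CPM in the Ucp1-low libraries. Letmd1, an inner mitochondrial membrane protein needed for heat production in mouse brown fat, was at 64.1 to 165 CPM (median 107) on the Ucp1-high side and at 32.6 to 56.1 CPM (median 40.4) on the Ucp1-low side, a log2 fold change of 1.60 ± 0.32. Adcy3, an adenylyl cyclase that makes cyclic AMP, was at 31.6 to 73.9 CPM (median 45.2) in Ucp1-high libraries against 23.5 to 30.5 CPM (median 27.8) in Ucp1-low libraries, a log2 fold change of 1.02 ± 0.22. Kcnk3, a potassium channel of brown adipocytes, was at 1.34 ± 0.33.

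The beta-3 adrenergic receptor gene Adrb3, which white adipocytes of mice also carry, overlapped between the sides. It ran from 64.9 to 134 CPM (median 104) in Ucp1-high libraries against 47.2 to 190 CPM (median 100) in Ucp1-low libraries, and its log2 fold change was 0.03 ± 0.37. The batokine gene Nrg4 was at 0.45 ± 0.27. Dio2, the deiodinase that activates thyroid hormone inside brown adipocytes and that noradrenaline induces, ran from 8.89 to 49.5 CPM (median 36.0) on the Ucp1-high side and from 1.80 to 47.7 CPM (median 5.33) on the Ucp1-low side. Its order differed from that of Ucp1: replicate 5 at 1 mg/kg, a Ucp1-low library, had 47.7 CPM, and replicate 1 at 5 mg/kg, the third in Ucp1, had 8.89 CPM. Its log2 fold change was 1.65 ± 0.77.

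Transcription factors and cofactors of the brown programme had smaller fold changes than the lipid handling genes. Of 16 tested, 15 had positive log2 fold changes, with a median of 0.62, and the sides overlapped in each. Ppara, the nuclear receptor that switches on fatty acid oxidation, ran from 18.9 to 65.8 CPM (median 34.3) on the Ucp1-high side and from 9.75 to 22.1 CPM (median 13.9) on the Ucp1-low side, and at 1.58 ± 0.37 it had the second largest fold change of the list after Zic1. Ppargc1a, the cofactor of mitochondrial biogenesis, was at 19.5 to 78.6 CPM (median 43.1) in Ucp1-high libraries against 15.5 to 44.1 CPM (median 27.6) in Ucp1-low libraries, a log2 fold change of 0.90 ± 0.40. Its highest level was in replicate 3 at 1 mg/kg, the library highest in the muscle gene Ckm. Ppargc1b was at 0.73 ± 0.19, Esrra at 0.69 ± 0.23 and Prdm16, which holds brown adipocyte identity, at 0.50 ± 0.20, on 9.75 to 12.7 CPM in Ucp1-high and 6.60 to 13.1 CPM in Ucp1-low libraries. Lhx8, often used as a marker of classical brown fat, was at 0.04 ± 0.22, with 3.20 to 9.07 CPM in Ucp1-high and 4.46 to 6.20 CPM in Ucp1-low libraries. Only 1 of its 6 highest libraries was a Ucp1-high one.

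In the list of mitochondrial isoforms, 9 of 10 genes were higher on average. It holds isoforms that brown fat and muscle share, such as Cox8b and Cox7a1, and other genes, such as Ucp2 and Oplah. Cox8b, a subunit of cytochrome oxidase, ran from 97.4 to 348 CPM (median 215) on the Ucp1-high side and from 42.8 to 119 CPM (median 79.8) on the Ucp1-low side, a log2 fold change of 1.70 ± 0.43. Cox7a1, a second such subunit, was at 1.64 ± 0.45. Of the other uncoupling proteins, Ucp3, which muscle and brown fat make, was at 1.02 ± 0.35, and Ucp2, which immune cells make, was at -0.14 ± 0.27. Heat production without UCP1, by creatine or calcium cycling, was read from 12 genes with a median of 0.32, which turned to -0.20 with the share of reads outside genes as a term and to -0.05 with dose and Ckm. The creatine kinase gene Ckmt2 was at 1.07 ± 0.47, the calcium pump gene Atp2a2 at 1.30 ± 0.41, and both are also made in muscle, while Gatm (0.07 ± 0.27), Alpl (-0.10 ± 0.26) and Ckb (0.24 ± 0.25) were near 0.

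**Figure D2:**
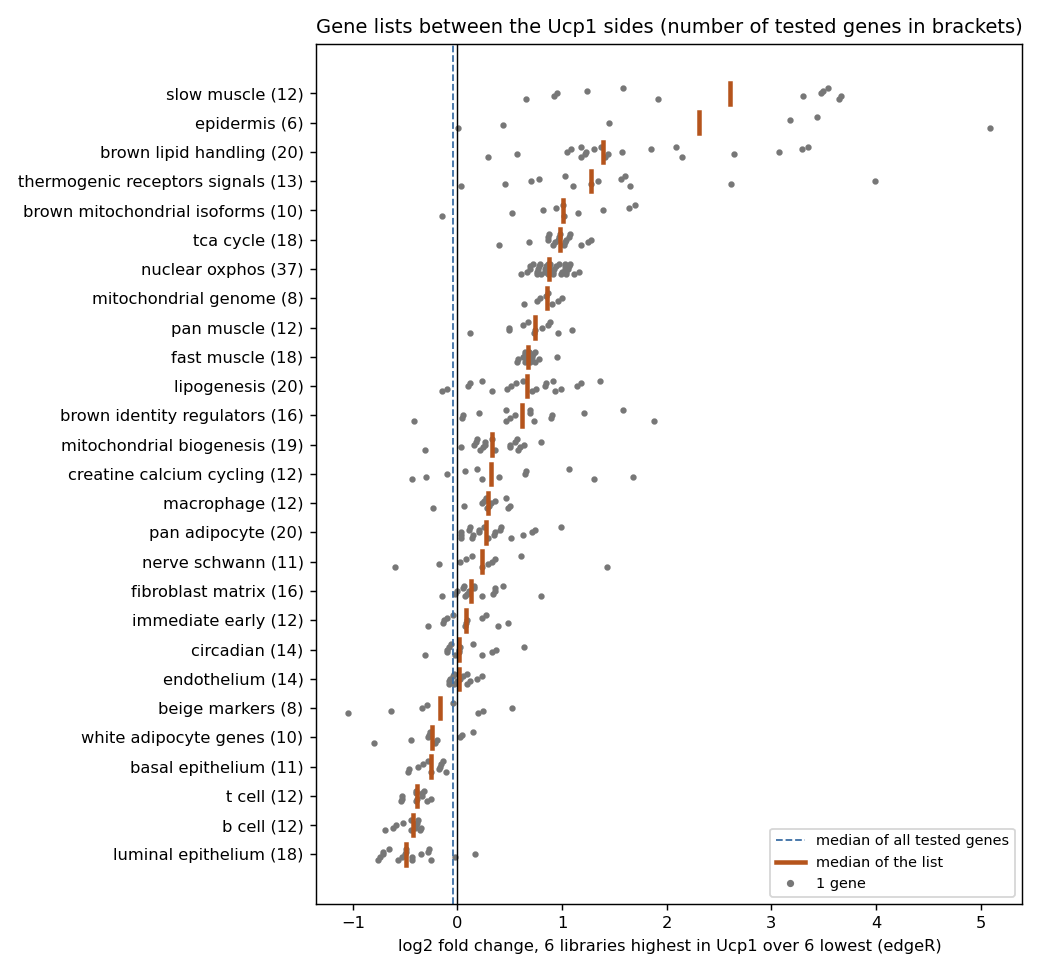
Log2 fold change (Ucp1-high over Ucp1-low, edgeR) of every tested gene of 27 lists, 1 point per gene, with the median of each list as a bar and the median of all tested genes, -0.04, as a dashed line. The 4 lists with the highest medians are slow muscle (2.61), epidermis (2.31), brown fat lipid handling (1.39) and thermogenic receptors and signals (1.28).

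When the level of Ucp1 replaced the 2 sides, genes passed the test. A fit of every gene on log2(Ucp1 CPM + 1) over the 12 libraries called 347 genes by edgeR at an adjusted p of 0.05, 243 rising with Ucp1 (1.31% of 18615) and 104 falling (0.559%). Of the 59 brown fat genes, 24 were called rising. They were 14 of 20 lipid handling genes, 6 of 13 receptors and signals, 3 of 10 mitochondrial isoforms and, of 16 regulators, Ppara alone. Slopes are log2 units per unit of log2(Ucp1 CPM + 1), that is, per doubling of Ucp1.

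A small core followed Ucp1 in each of 21 such fits, which left out each library in turn, changed the scaling, or held dose, Ckm, the slow muscle gene Tnnt1, Ms4a1 or the share of reads outside genes. It consisted of Cidea, Slc27a2, Otop1, Cpn2 and the gene model Gm10032. Cidea rose by 0.73 ± 0.05 per doubling (adjusted p = 1.33e-05 by edgeR, 0.61 to 0.77 over the 21 fits). Slc27a2 rose by 0.86 ± 0.05 (0.77 to 0.89) and Otop1 by 0.65 ± 0.04 (0.57 to 0.76). Cpn2, which encodes the regulatory subunit of carboxypeptidase N, a plasma enzyme made mainly in liver (GRCm38 chromosome 16, 30256378 to 30267499, minus strand), rose by 1.01 ± 0.07 (0.92 to 1.12), in step with Ucp1. It stood at 1.56 to 10.3 CPM (median 4.37) in Ucp1-high and at 0.0643 to 1.17 CPM (median 0.334) in Ucp1-low libraries, 161-fold from lowest to highest library. Elovl3 was called in 20 of the 21 fits, Acot11 and Pank1 in 18, Kng2 in 15 and Gk in 14.

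The other calls depended on single libraries and terms. Without 1 of the 12 libraries, between 11 and 143 genes rose with Ucp1 and between 0 and 98 fell, the fewest without replicate 5 at 5 mg/kg (11 and 0) and the most without replicate 5 at 1 mg/kg (143 and 98). With dose as a term 11 genes rose and 0 fell, with Ckm 8 and 0, with Tnnt1 8 and 0, and with the share of reads outside genes 5 and 0, the 5 being the core named above. Other settings gave more calls or another balance: with Ms4a1 as a term 2485 rose and 2777 fell, and with libraries scaled by size alone 282 rose and 593 fell.

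By likeness alone, the genes whose log2(CPM + 1) followed that of Ucp1 most closely over the 12 libraries, among 15706 genes with a mean CPM of at least 1, were Cidea (Pearson r = 0.991), Otop1 (0.978), Slc27a2 (0.974), the mitochondrial ribosome genes Mrps2 (0.970) and Mrps5 (0.957), and Dnajc15 (0.946), a mitochondrial chaperone. These correlations describe the 12 libraries, which the genes share. Mrps2 varied little, at 27.9 to 32.9 CPM on the Ucp1-high side against 19.5 to 28.6 CPM on the Ucp1-low side, and rose by 0.13 ± 0.02 per doubling of Ucp1 (adjusted p = 0.0397 by edgeR).

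**Figure D3:**
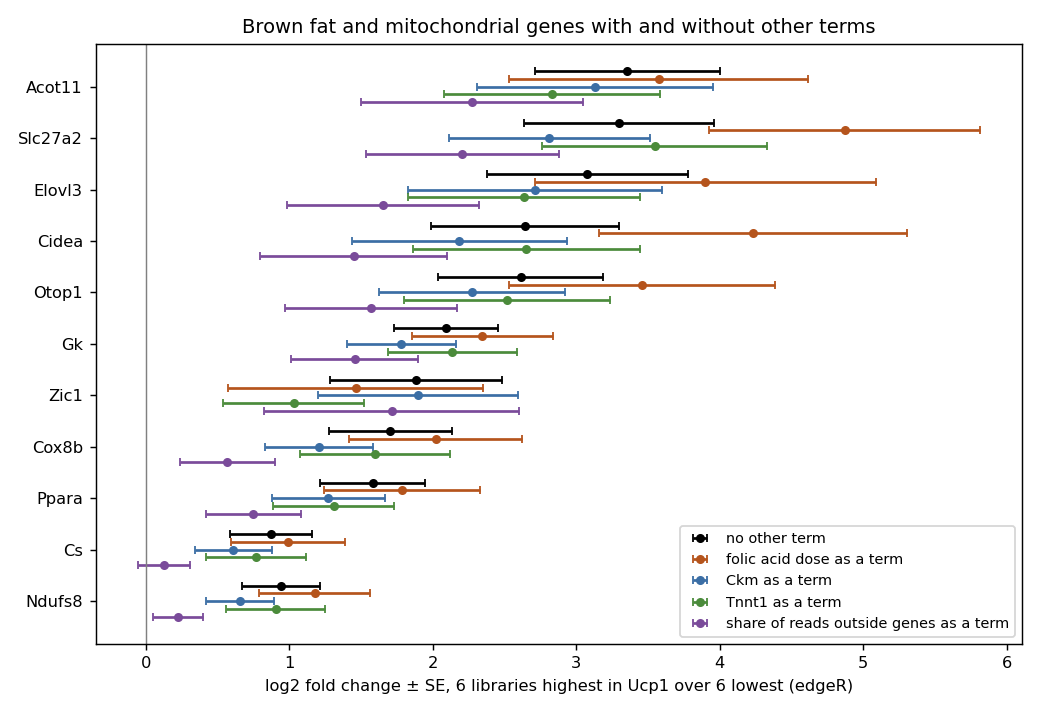
Log2 fold change ± SE (Ucp1-high over Ucp1-low, edgeR, 12 libraries) of 11 genes with no other term and with dose, Ckm, Tnnt1 or the share of reads outside genes in the fit. The brown fat genes plotted stay above 0 with each of these terms, and Cs and Ndufs8 come to 0.12 and 0.22 with the share of reads outside genes.

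Between the sides, Cidea, Slc27a2 and Otop1 of the core had larger fold changes with dose in the fit than without it. With dose as a term, the log2 fold change of Cidea between the sides was 4.23 ± 1.07, of Slc27a2 4.87 ± 0.95 and of Otop1 3.45 ± 0.93, and that of dose beside the sides, 5 mg/kg over 1 mg/kg, was -1.85 ± 1.21, -1.90 ± 1.07 and -1.01 ± 1.01 for the same genes. Of the other markers, Elovl3 came to 3.90 ± 1.19, against 3.08 without dose, and Zic1 to 1.46 ± 0.89, against 1.88. With dose as a term 36 of the 59 brown fat genes were higher at an unadjusted p under 0.05 by edgeR, against 45 without it. Within the 5 mg/kg pads, the 5 Ucp1-high libraries against the lone Ucp1-low replicate 6 gave 6.02 ± 1.46 for Cidea. That replicate had the lowest Ucp1 of all 12 libraries, 1.90 CPM. Within the 1 mg/kg pads, the lone Ucp1-high replicate 3 against the 5 Ucp1-low libraries gave 2.46 ± 0.67. Both fits assume that the lone library varies like the others. The ranking by Ucp1 set each lone library apart, so a gene that follows Ucp1 had to differ there. These contrasts are therefore no separate check within a dose. No gene passed the test of the interaction of side and dose (0 of 18615, 618 at an unadjusted p under 0.05 by edgeR). Dose in place of the sides gave 0 calls, with 355 genes at an unadjusted p under 0.05 by edgeR, against 2278 for the sides. The sides were made from the RNA of these libraries and dose was not, so these counts do not weigh side against dose.

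The machinery of mitochondrial respiration had higher mean levels on the Ucp1-high side. All 37 nuclear genes of oxidative phosphorylation had positive log2 fold changes with an unadjusted p under 0.05, within a narrow range of 0.61 to 1.16 and with a median of 0.88. Ndufs8, a complex I subunit, ran from 74.1 to 134 CPM (median 102) on the Ucp1-high side and from 44.0 to 87.4 CPM (median 59.3) on the Ucp1-low side, a log2 fold change of 0.94 ± 0.27. Cox7b was at 1.11 ± 0.31 and Atp5b, the catalytic subunit of ATP synthase, at 0.84 ± 0.30. In the fit on the Ucp1 level 27 of the 37 were called rising, where 1.31% of all tested genes were. With dose, Ckm or Tnnt1 beside the Ucp1 level, 0 of the 37 were called. With dose and Ckm as terms beside the sides, 0 of the 37 had an unadjusted p under 0.05 by edgeR. Of 18 genes of the citric acid cycle and its entry, all had positive fold changes, with a median of 0.98. By the Ucp1 level 12 of them were called, and 0 were with dose, Ckm or Tnnt1 beside that level. Dlst, a subunit of the oxoglutarate dehydrogenase complex, was at 0.97 ± 0.24 and citrate synthase, Cs, at 0.87 ± 0.28, while pyruvate carboxylase, Pcx, which white fat also uses to make lipid, was at 0.40 ± 0.42.

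Genes encoded by mitochondrial DNA had fold changes of a like size. All 8 that were counted highly enough had positive log2 fold changes, 0.64 to 1.00, with a median of 0.86, and 0 were called by the Ucp1 level. An unadjusted p under 0.05 by edgeR was found for 7 of them. That number was 0 with Ckm or Tnnt1 as a term and 1 without replicate 5 at 5 mg/kg. Counts were uneven within this genome: mt-Co1 ran from 22043 to 63961 CPM, while mt-Co3, which was not tested, reached at most 0.721 CPM. Of the 8, mt-Nd3 was at 0.543 to 1.60 CPM. Genes that copy and shape mitochondria differed less, with a median of 0.33 over 19. Tfam, which packs and transcribes mitochondrial DNA, was at 0.22 ± 0.14.

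These respiratory and brown fat values moved with the share of reads outside genes, which was lower on the Ucp1-high side. With that share as a term, the median of the 37 oxidative phosphorylation genes was 0.14 and 0 of them had an unadjusted p under 0.05, against 0.88 and 37 without it. The brown fat lists came down as well, lipid handling to a median of 0.58 (7 of 20 genes under 0.05, against 18 without the term), receptors and signals to 0.56 (4 of 13, against 10), mitochondrial isoforms to 0.35 (0 of 10, against 8) and regulators to 0.14 (1 of 16, against 9). With Ckm as a term the medians were 0.60 for oxidative phosphorylation and 1.15 for lipid handling. The part of the reads outside genes in these results was not tested.

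Muscle content, read from Ckm, overlapped between the sides. Ckm, the creatine kinase of skeletal muscle, was at 2270 to 7667 CPM in Ucp1-high libraries and at 1315 to 5256 CPM in Ucp1-low libraries. On the scale of log2(CPM + 1) it averaged 11.9 ± 0.60 on the Ucp1-high side and 11.4 ± 0.73 on the Ucp1-low side (SD, n = 6 each), a difference of 0.53 (two-sided exact permutation test, p = 0.208, smallest possible 0.00216). The library highest in Ckm, replicate 3 at 1 mg/kg, was a Ucp1-high library, and the next highest, replicate 5 at 1 mg/kg, was the Ucp1-low library nearest the boundary. The edgeR log2 fold change of Ckm was 0.72 ± 0.45. All 18 fast-twitch genes had positive fold changes, 0.57 to 0.95, and 0 had an unadjusted p under 0.05. With dose as a term 8 of them had one (median 1.05, against 0.68 without it), and with the share of reads outside genes as a term 17 of 18 were negative (median -0.25). Their summed level ran from 30708 to 103304 CPM on the Ucp1-high side and from 20434 to 67643 CPM on the Ucp1-low side, with no member at 0.

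Slow-twitch muscle genes had a median of 2.61, with all 12 higher on average and 10 at an unadjusted p under 0.05. With dose as a term the median was 1.19 and 2 genes had such a p. Dose in place of the sides gave 12 of 12 higher at 5 mg/kg and 8 with such a p. In the 5 mg/kg libraries alone, where replicate 6 stands alone on the Ucp1-low side, the median was 3.60, with 12 of 12 higher. In the 1 mg/kg libraries alone it was -1.55, with 7 of 12 genes lower on the Ucp1-high side, where replicate 3 stands alone. The shares of side and dose in these values cannot be told apart. Their summed level was 1577 to 6566 CPM on the Ucp1-high side and 773 to 1950 CPM on the Ucp1-low side. Tnnt1, the slow troponin T, was at 238, 443, 46.4, 2.96, 53.6 and 110 CPM in Ucp1-high libraries in the order of Ucp1, and at 3.83, 17.3, 2.29, 64.6, 22.0 and 8.60 CPM in Ucp1-low libraries. The 2 highest were the 2 libraries highest in Ucp1, and the second lowest was replicate 3 at 1 mg/kg. That library had the highest Ckm but 2.31 CPM of Myh7, the slow myosin, where the other Ucp1-high libraries had 226 to 1989 CPM. The log2 fold change of Tnnt1 was 3.30 ± 1.06, and 1.19 ± 3.69 with dose as a term, and that of Myh7 3.47 ± 1.32, and no slow-twitch gene was called by the Ucp1 level. With Tnnt1 as a term, Slc27a2 stayed at 3.55 ± 0.78 and Cidea at 2.65 ± 0.79, and Zic1 came to 1.03 ± 0.49. Whether slow muscle has a part in the other differences was not tested.

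**Figure D4:**
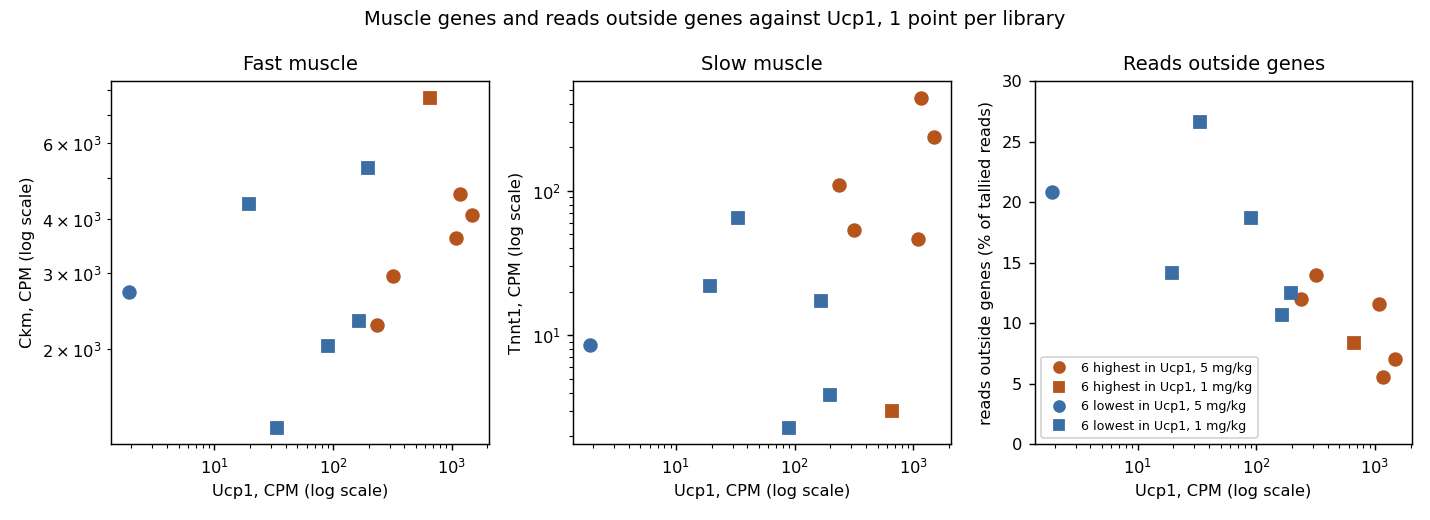
Ckm (left) and Tnnt1 (middle) in CPM on log axes, and reads outside genes in percent (right), against Ucp1 in CPM on a log axis, 1 point per library; orange is the Ucp1-high and blue the Ucp1-low side, circles 5 mg/kg and squares 1 mg/kg. Ckm overlaps widely between the sides, replicate 3 at 1 mg/kg has the most Ckm and little Tnnt1, and reads outside genes run from 5.58% to 14.0% on the Ucp1-high side and from 10.6% to 26.6% on the Ucp1-low side.

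The members of each side also differed among themselves. On the Ucp1-high side, replicates 4, 5 and 1 at 5 mg/kg held 1089 to 1483 CPM of Ucp1 and the other 3 libraries 236 to 662 CPM. Acot11 and Kng2 parted those 3 from the other 3 without overlap, as given above, whereas Slc27a2 did not. Replicate 3 at 1 mg/kg had 48.8 CPM of Slc27a2, within the 40.9 to 71.6 CPM of the 3 libraries above it in Ucp1, with 65.4 CPM of Acot11 and 1.69 CPM of Kng2. It also had the highest Ppargc1a and Pdk4, the kinase that turns pyruvate away from the citric acid cycle, of all 12 libraries (78.6 and 1016 CPM).

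The library lowest in Ucp1, replicate 6 at 5 mg/kg, had the highest level of most genes favoured in white fat. Of the 10 tested, 8 peaked in it, where 15.1% of all tested genes did. Genes of other cell types peaked there too, 11 of 14 endothelial genes and 12 of 16 genes of fibroblasts and matrix, and their part in the white fat values was not tested. Lep, the leptin gene, had 171 CPM there, against 10.4 to 138 CPM in the other 11 libraries. Nnat, neuronatin, had 181 CPM there and 16.0 to 70.6 CPM in the others, and Npr3, the clearance receptor of natriuretic peptides, had 263 CPM there and 27.8 to 219 CPM in the others. Across the sides these genes overlapped, and none passed the test. Of the 20 lipid handling genes of brown fat, 13 peaked in replicate 4 and 6 in replicate 5 at 5 mg/kg, the 2 libraries highest in Ucp1, where 5.66% and 4.76% of all tested genes peaked. Of the 18 fast-twitch genes, 16 peaked in replicate 3 at 1 mg/kg (4.38% of all tested genes). The library with the most reads outside genes, replicate 6 at 1 mg/kg, held the peak of 34.3% of all tested genes and of none of the lipid handling genes.

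Genes of fat in general had small fold changes. The 20 genes that all adipocytes share had a median log2 fold change of 0.27, and 1 of them had an unadjusted p under 0.05. Their direction turned with the share of reads outside genes as a term (0 of 20 positive, median -0.30), with dose and Ckm as terms together (5 of 20, -0.26) and in the 1 mg/kg libraries alone (9 of 20, -0.10). Adipoq, the adiponectin gene, was at 0.11 ± 0.34, Fabp4, the fatty acid carrier, at 0.14 ± 0.33 and Pparg, the master regulator of fat cells, at 0.21 ± 0.30. Genes favoured in white fat had a median of -0.24 over 10, with the leptin gene Lep at -0.20 ± 0.51 and Nnat at -0.79 ± 0.41. Their median was -0.70 with dose as a term (0 of 10 positive) and -1.05 with dose and Ckm as terms. Without replicate 6 at 5 mg/kg, the library lowest in Ucp1, it was -0.01, with 5 of 10 positive. Beige fat markers had a median of -0.17 over 8, and of 0.04 with dose as a term. Among them Tmem26 was at -0.34 ± 0.81, with 0.360 to 2.45 CPM in the 5 libraries lowest in Ms4a1 and 2.41 to 15.5 CPM in the other 7. Hoxc9, a patterning gene, was at -1.04 ± 0.48, with 0.131 to 0.583 CPM in Ucp1-high and 0.248 to 2.06 CPM in Ucp1-low libraries. Fat synthesis genes had a median of 0.67 over 20, with 18 positive. Their direction turned with the share of reads outside genes as a term (7 positive, median -0.15) and in the 1 mg/kg libraries alone (5 positive, median -0.41). Fasn, the fatty acid synthase, was at 0.84 ± 0.51 and Acly, which makes cytosolic acetyl-CoA, at 1.37 ± 0.70, both with overlapping sides. Acacb, the mitochondrial acetyl-CoA carboxylase, parted the sides most in this list, at 327 to 588 CPM (median 493) in Ucp1-high and 188 to 350 CPM (median 229) in Ucp1-low libraries, with a log2 fold change of 1.14 ± 0.27.

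Other cell types of the pad were spread over both sides. Of 18 luminal epithelial genes 17 had negative log2 fold changes, as 55.7% of all genes did, with a median of -0.49, and 0 had an unadjusted p under 0.05, with Epcam at -0.50 ± 0.40. Basal epithelial genes were all negative (11 of 11, median -0.25). B cell and T cell genes were all negative as well, 12 of 12 each, with medians of -0.43 and -0.39, and their summed level ran from 17.4 to 1658 CPM for B cell genes in Ucp1-high libraries and from 15.8 to 2570 CPM in Ucp1-low libraries. With dose as a term the medians of the lymphocyte lists were 1.78 and 1.01, and with the share of reads outside genes 0.72 and 0.70, so that their direction turned. Endothelial genes had a median of 0.011 over 14, and of -0.17 when libraries were scaled by their size alone, which moved the median of all genes to -0.23. The skin genes Dmkn (5.09 ± 1.35) and Krt10 (3.18 ± 0.96) were high in 2 Ucp1-high libraries, where Dmkn reached 30.5 and 9.04 CPM, and were at most 0.622 CPM for Dmkn in the others.

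Among the genes with lower levels on the Ucp1-high side, those with the smallest p had small fold changes. Zfp182, a zinc finger gene, ran from 12.6 to 23.5 CPM (median 18.4) on the Ucp1-high side and from 21.7 to 55.8 CPM (median 32.5) on the Ucp1-low side, a log2 fold change of -0.66 ± 0.17. Zfp950 was at -0.61 ± 0.17, the splicing factor Tra2a at -0.54 ± 0.16, and Ccp110, a centriole protein, at -0.35 ± 0.09. Each was highest in replicate 6 at 1 mg/kg, where 34.3% of all tested genes were highest. That library had the largest share of reads outside genes, 26.6%, and the part of this share in these values was not tested. In the fit on the Ucp1 level Zfp950 fell by 0.13 per doubling (adjusted p = 0.0462 by edgeR) and Zfp182 did not pass (0.0571).

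The counting limits some of these genes. Cidea, Zic1, Elovl3, Slc27a2, Acot11, Kng2, Gk, Pank1, Ppargc1a and Nnat overlap another annotated gene, whose reads cannot be told apart without strand, and Ucp1, Otop1, Cpn2, Letmd1, Plin5, Ppara, Cox8b and Cox7a1 do not.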

How the data were processed

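RNA of 12 whole right thoracic mammary fat pads was sequenced from TruSeq v2 libraries, which do not mark strand. The authors deposited unnormalized counts of reads per gene, made with STAR on mm10 and HTSeq 0.6.1 per the submitters' processing notes. The STAR version, annotation and strand setting were not given in the sources used here. Per library 55487 gene IDs were counted, and 5 tally lines were left out of library sizes and tests. Symbols and positions came from GENCODE on GRCm38, the assembly of mm10.

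Libraries were ranked by Ucp1 CPM, counts divided by gene-assigned reads without mt-Rnr1 and mt-Rnr2. The 6 highest were compared with the 6 lowest in edgeR 4.0.16 (R 4.3.3), with filterByExpr by side, TMM scaling and the robust quasi-likelihood F-test. P-values were adjusted by Benjamini-Hochberg over 18615 genes, without Ucp1, mt-Rnr1 and mt-Rnr2, and the threshold was 0.05. Fold changes are log2, Ucp1-high over Ucp1-low, with SE from the F statistic. Single values were compared by exact two-sided permutation over 924 assignments. A second fit used log2(Ucp1 CPM + 1) as a continuous term and was set among the alternatives. DESeq2 1.42.0, limma-voom 3.58.1, other scalings, filters and terms, and fits without each library were run beside it. The edgeR fits were also run on simulated counts. There every gene had the same scatter and libraries shared no differences in cell content, unlike here. That run therefore does not bear on the calls in these libraries. No pair among 30 pairs of libraries of one side agreed within sampling noise (lowest chi-square 41.7 per degree of freedom).

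The members, the 27 gene lists and the terms were chosen with earlier results of these data known. To be named were, in each direction, 12 genes by fold change and 12 by p among those that passed with a mean CPM of at least 1, or, where fewer passed, the 12 of smallest p. Of each list the marker genes, the 4 smallest p, the 2 highest levels and every called member could be named, and the 10 genes most like Ucp1. Some list members, such as Lhx8, Prdm16, Ppargc1a, Slc27a1, Ucp2, Tfam, Lep and Npr3, were named after their values were seen.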

Additional observations from a re-analysis of the deposited data

Results flagged for a closer look

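Of 196 sets of 6 libraries examined for a single library far from the rest (by Dixon's 95% critical value for the gap, which chance passes in about 1 of 20 sets), 4 had one. On the scale of log2(CPM + 1), Dio2 stood at 5.607 in replicate 5 at 1 mg/kg (47.7 CPM), while the other Ucp1-low libraries had 1.80 to 6.77 CPM. Myh7, the slow myosin, stood at 1.726 in replicate 3 at 1 mg/kg (2.31 CPM), while the other Ucp1-high libraries had 226 to 1989 CPM. Nrip1, a corepressor of thermogenic genes, stood at 7.058 in replicate 5 at 5 mg/kg (132 CPM), below the 165 to 185 CPM of the other Ucp1-high libraries. The mean level of the nerve and Schwann cell list was 4.377 in the same library, above 3.77 to 3.94 in the other Ucp1-high libraries.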

How the results depend on the processing

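The count of 0 genes between the sides held under the 3 other scalings, the 2 other filters, dose, Ckm, Tnnt1 or reads outside genes as a term, limma-voom and each fit without a library. It was 24 with Ms4a1 as a term, 347 with the Ucp1 level in place of the sides, 70 by DESeq2 and 1, Krt25 (named after its value was seen), in the 1 mg/kg libraries alone. For the Ucp1 level, the counts of rising and falling genes were 11 and 0 with dose, 8 and 0 with Ckm, 8 and 0 with Tnnt1, 5 and 0 with reads outside genes, 2485 and 2777 with Ms4a1, 87 and 70 with upper quartile scaling, and 282 and 593 with library size alone. Fits without 1 library gave 11 to 143 rising and 0 to 98 falling. Of the 65 genes followed over the alternatives, 12 values turned sign. In the 1 mg/kg libraries alone, where replicate 3 stands alone on the Ucp1-high side, the log2 fold changes were -2.445 for Tnnt1, -3.554 for Myl3, -3.837 for Tnni1, -4.937 for Myh7, -0.046 for Atp2a2, -0.096 for Elovl6 and 0.095 for Nrip1. With Tnnt1 as a term they were -0.118 for Myl3, -0.162 for Tnni1 and -0.497 for Myh7, and with reads outside genes -0.077 for Ckmt2 and -0.081 for Elovl6. The cause was not tested. The distribution of dose and the difference in Ckm kept their direction and their side of the threshold under every ranking, scale, pseudocount and left-out library tried.

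No paired analysis was possible because the replicate numbers only repeat the records' order and link no library of one dose to one of the other. Depth limits Zic1, Bmp8b, Cpt1b, Hoxc9, Th, Cpn2 and Kng2, which had about 1 CPM or less in several libraries. The lowest library of Cpn2 had 0.0643 CPM and that of Kng2 0.131 CPM, so their fold changes rest on few reads there.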

Other observations

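Of 12 macrophage genes, 11 had positive log2 fold changes, where 44.3% of all tested genes did, with a median of 0.29. The complement genes C1qa (0.46 ± 0.18), C1qb (0.51 ± 0.20) and C1qc (0.48 ± 0.18) were the 3 with an unadjusted p under 0.05 by edgeR. Of all tested genes, 6.48% had such a p with a higher level. None of the 3 passed the adjustment, and their sides overlapped. Summed macrophage levels were 889 to 2160 CPM (median 1467) in Ucp1-high and 883 to 2164 CPM (median 1483) in Ucp1-low libraries. Folr2, a folate receptor that tissue macrophages carry, was named after its value was seen. It was higher in each Ucp1-high library than in any Ucp1-low library, as were 0.145% of all tested genes. Folr2 averaged 45.1 ± 8.94 CPM on the Ucp1-high side and 30.1 ± 7.16 CPM on the Ucp1-low side (SD, n = 6 each). Its log2 fold change was 0.77 ± 0.21 (edgeR adjusted p = 0.369). Of the Ucp1-high libraries 5 came from 5 mg/kg pads, and of the Ucp1-low libraries 5 came from 1 mg/kg pads. Side and folic acid dose therefore cannot be told apart for this gene.

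S100b, which Schwann cells and adipocytes make, had a median of 9.25 CPM on the Ucp1-high side and 4.07 CPM on the Ucp1-low side, and the sides overlapped (log2 fold change 1.43 ± 0.40). Th, the enzyme of noradrenaline synthesis in sympathetic nerves, was at 0.211 to 2.10 CPM in Ucp1-high and 0.429 to 1.16 CPM in Ucp1-low libraries. Slc4a4, a bicarbonate transporter, parted the sides without being on any list, at 79.4 to 203 CPM on the Ucp1-high side and 32.4 to 64.1 CPM on the Ucp1-low side (1.56 ± 0.31), as did Igsf21 (1.57 ± 0.32) and Tmem37 (1.66 ± 0.35). Of all tested genes, 0.145% parted the sides in this direction, and Igsf21 had a mean of only 1.67 CPM. Clock genes had a median of 0.015 over 14, and immediate early genes of 0.078 over 12. Genes of the extracellular matrix had a median of 0.13 over 16, of -0.06 with library size alone and of -0.17 with dose as a term.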
